A study of Mus musculus with 18 samples.

Results

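Immediate early genes are the genes that cells transcribe first after serum, growth factors or stress, without needing new protein. The set described here held 37 of them, chosen by name: the FOS, JUN, EGR, NR4A and KLF transcription factors, Atf3, Maff, Myc and Csrnp1, the IER and DUSP families, and the feedback or effector genes Zfp36, Zfp36l1, Btg2, Arc, Trib1 and Gadd45b. Each was matched by its Ensembl identifier to 1 of the 32286 entries of the deposited count table, and all 37 passed the filter on low counts that left 17841 genes for testing. Egr4 passed it through the AT-3 libraries with wild-type MRTFA alone. The study asked what binding of MRTFA to SRF does in mammary carcinoma cells. The cells were AT-3 and E0771, both mouse mammary tumour lines. Each line carried a retroviral pRetroX vector, switched on by doxycycline, that expressed wild-type MRTFA, expressed the Y238A form described by the series as deficient in SRF binding, or was empty. Doxycycline (2 µg/ml, 48 h) was given in all 6 groups, empty vector included, and there were 3 libraries per group, 18 in all. The series speaks of 3 replicate sets without saying whether these were separate cultures or clones, so p-values measure only the spread between these libraries. Serum conditions were not given in the sources used here.

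SRF is a transcription factor that binds CArG boxes, and it is steered by alternative partners. Ternary complex factors (Elk1, Elk3, Elk4) are phosphorylated by ERK and drive the classic immediate early genes, whereas MRTFs, released from monomeric actin, drive cytoskeletal genes and compete with ternary complex factors for the same surface of SRF. Immediate early mRNAs are short-lived, and many encode proteins that shut the response down: DUSP phosphatases remove the activating phosphates of MAP kinases, and ZFP36 proteins mark AU-rich mRNAs for decay.

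CArG boxes are shown first because they are the sites through which SRF acts. RefSeq promoter windows (GRCm38.p6, 250 bases before to 50 after a start) were at hand for 28 of the 37 members. An exact CArG box, in either orientation, lay in the windows of Egr2, Dusp5 and Zfp36, 10.7% of the 28, against 1.75% of the 13003 tested genes in the table. The table had no window for Fosl1, Egr1, Egr3, Klf10, Myc, Ier2, Dusp4, Arc and Trib1. Boxes outside the windows, or off by a letter, were not searched. A window without a match, such as that of Fos, therefore does not mean that the gene lacks a CArG box. Below, in the direction of transcription, the capitals mark the CArG boxes, and Dusp5 has a pair side by side. For Egr2, 150 bases with a box are shown before the starts of 2 of its 5 windows.
Egr2, upstream start, chr10:67537416-67537565, + strand: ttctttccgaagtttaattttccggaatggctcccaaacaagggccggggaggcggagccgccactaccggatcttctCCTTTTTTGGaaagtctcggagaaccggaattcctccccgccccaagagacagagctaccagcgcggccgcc
Egr2, downstream start, chr10:67537719-67537868, + strand: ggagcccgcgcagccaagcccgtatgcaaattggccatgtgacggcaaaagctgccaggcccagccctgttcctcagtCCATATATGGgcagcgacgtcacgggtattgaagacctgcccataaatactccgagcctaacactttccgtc
Dusp5, chr19:53529058-53529087, + strand: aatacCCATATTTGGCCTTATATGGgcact
Zfp36, chr7:28379267-28379296, - strand: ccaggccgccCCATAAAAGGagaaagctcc
The boxes of Egr2 began 72 bases before the starts shown, that of Zfp36 58 bases before, and those of Dusp5 82 and 72 bases before. The downstream Egr2 box also lay 73 and 133 bases before further annotated starts. All 150 bases before the start were exonic in the reference annotation for Zfp36, in its own exon, and for Dusp5, in exons of Dusp5 and opposite-strand AC137853.2. The Dusp5 gene there begins at base 53529109, past both boxes, so these lie in exonic sequence of AC137853.2 only. In the Egr2 stretches shown 0 bases were exonic. Other motifs were searched on both strands: the cAMP response element TGACGTCA was found in Maff, Dusp1 and Btg2 (10.7% of members, 3.21% of tested genes), the AP-1 site TGANTCA in Csrnp1 and Zfp36l1 (7.14% against 7.37%) and the Ets core CCGGAA in Egr2, Nr4a1, Maff and Zfp36 (14.3% against 27.2%). These are letter matches and not measured binding.

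Library totals ran between 81265466 and 115260128 counts, and values below are CPM, counts scaled to library totals after TMM normalisation. Counts of 2 outnumbered counts of 1 in every library, as happens when both mates of a pair are counted. An MRTFA entry, beside mouse Mrtfa, was read as the construct from its levels by group. The sources used here do not say how it was added. It averaged 5434 ± 1444 CPM with wild type and 2104 ± 195 CPM with Y238A in AT-3. In E0771 it averaged 761 ± 91.1 CPM with wild type and 319.6 ± 37.4 CPM with Y238A (SD, n = 3). It was at most 0.115 CPM in any empty-vector library. On that reading the constructs also differed in amount. Srf had a log2 fold change with wild type of 1.65 ± 0.07 for AT-3 and 1.21 ± 0.07 for E0771 (± SE), and both passed. Transcripts abundant in another group were found at low levels in 8 of the 12 libraries checked. Across 240 genes of AT-3 that E0771 hardly expresses, the median was 1.35% of the AT-3 level in empty-vector replicate 2 of E0771, 0.508% in its wild-type replicate 2, 0.269% in its Y238A replicate 1, 0.0616% in its Y238A replicate 2 and 0.0348% in its wild-type replicate 1, and it was 0 in the other 4 E0771 libraries. Another 33 genes were expressed in AT-3 with wild type and hardly with empty vector. Their median share of the wild-type level was 1.29% in AT-3 Y238A replicate 1, 0.2696% in replicate 2 and 0.111% in replicate 3. These 33 genes were chosen by wild-type and empty-vector levels only. In AT-3 with Y238A, carry-over and expression under Y238A itself therefore cannot be told apart. The 2 gene sets differ, so these shares are not on one scale across the lines. Results on some members, at low and at higher levels, are also given without 4 of these libraries. These are the first 3 named for E0771 and AT-3 Y238A replicate 1, called the 4 carry-over libraries below. The name rests on these shares alone, as no label speaks of carry-over. Leaving them out takes a library from each E0771 group and from AT-3 with Y238A. In a call lost that way, carry-over and the smaller number of libraries cannot be told apart.

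The summed level of 5 epithelial markers was 43.7 to 46.4 CPM with wild-type MRTFA, 66.0 to 78.5 CPM with Y238A and 5.56 to 5.90 CPM with empty vector in AT-3, where Krt8 was under 0.1 CPM with empty vector. It was 569 to 680.3 CPM with wild type, 376 to 399.6 CPM with Y238A and 304 to 328 CPM with empty vector in E0771, where Krt18 and Krt19 were under 0.1 CPM with empty vector. The summed level of 5 leukocyte markers was 21.7 to 22.3 CPM with wild type, 69.97 to 75.3 CPM with Y238A and 3.03 to 4.01 CPM with empty vector in AT-3, and 2.82 to 3.35 CPM with wild type, 11.5 to 17.3 CPM with Y238A and 3.02 to 4.68 CPM with empty vector in E0771. Nearly all of it was Cd68, a lysosomal glycoprotein of macrophages, which averaged 71.97 ± 2.89 CPM in AT-3 with Y238A (SD, n = 3). The other 4, Ptprc, Adgre1, Itgam and Cd3e, averaged under 0.1 CPM in all groups, except Ptprc and Itgam in AT-3 with wild type. The 6 fibroblast markers summed to 106 to 121 CPM with wild type, 384 to 431 CPM with Y238A and 519 to 564 CPM with empty vector in AT-3, and to 821 to 846 CPM with wild type, 744 to 933 CPM with Y238A and 701 to 747 CPM with empty vector in E0771. Lum was under 0.1 CPM in all 6 groups and Dcn in all but AT-3 with wild type, and the median log2 fold change of the 4 tested was -1.13 with wild type and -0.22 with Y238A in AT-3, and -0.40 with wild type and 0.0034 with Y238A in E0771. The 4 endothelial markers summed to at most 3.73 CPM in any library. The part of these markers in the results was not tested, and in bulk RNA fewer cells of a type and less RNA per cell cannot be told apart.

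With wild-type MRTFA most members rose in AT-3, and in E0771 17 of the 19 members that changed were higher. The adjusted p throughout is from edgeR's quasi-likelihood F test with Benjamini-Hochberg adjustment over all 17841 genes, and a gene is said to have risen or fallen where it is under 0.05. In AT-3, 24 of 37 members rose and 7 fell with wild-type MRTFA, or 64.9% and 18.9%, while 36.4% of all tested genes rose and 32.2% fell (68.6% in all). Without Egr4, which entered the test only through the group where it is high, 23 of 36 rose (63.9%), and the medians below are those of these 36. In E0771, 17 members rose and 2 fell, or 45.9% and 5.41%, against 11.2% and 13.3% of all genes. The 2364 genes behind that 13.3% became 1308 without AT-3 wild-type replicate 2, 1366 without AT-3 wild-type replicate 3, 1487 without E0771 wild-type replicate 1, 1509 without E0771 empty-vector replicate 2 and 1100 without the 4 carry-over libraries. The median log2 fold change of the members was 0.78 in AT-3 and 0.26 in E0771, and that of all genes was 0.07 in AT-3 and -0.05 in E0771. Y238A gave a mixed picture: in AT-3, 15 members rose and 10 fell (40.5% and 27.0%), against 21.4% and 22.2% of all genes, with a median of 0.12, and in E0771, 7 rose and 5 fell (18.9% and 13.5%), against 5.41% and 6.64%, with a median of 0.015, the medians of all genes being 0.01 and -0.01. The 1184 genes behind that 6.64% became 548 without E0771 empty-vector replicate 2 and 333 without the 4 carry-over libraries, and the 965 higher genes became 510 without those 4. The E0771 count of 7 became 4 without empty-vector replicate 2, and 2 higher and 3 lower without the 4 carry-over libraries. The E0771 count of 2 lower with wild-type MRTFA became 4 without Y238A replicate 2.

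**Figure D1:**
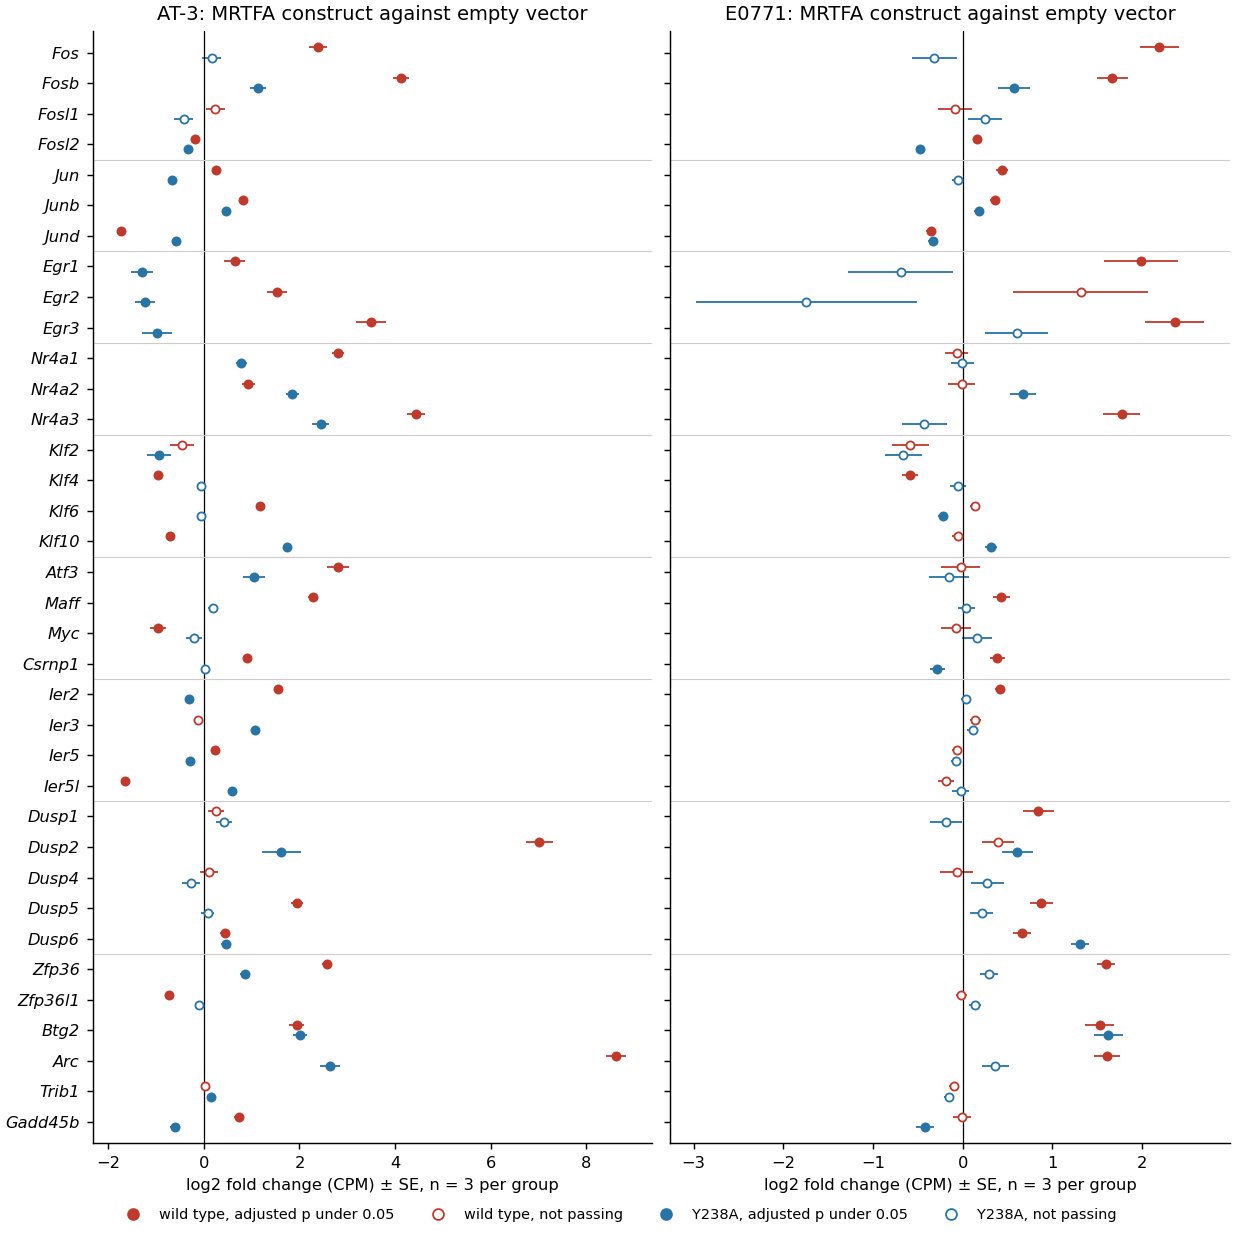
Log2 fold change ± SE (n = 3 libraries per group) of each member for wild-type MRTFA (red) and Y238A (blue) against empty vector, AT-3 on the left and E0771 on the right, on separate scales. Filled points had an adjusted p under 0.05, grey lines separate the families, and Egr4 is left out. Arc and Dusp2 stand far to the right with wild-type MRTFA in AT-3, and Klf10 and Ier5l lie on opposite sides of 0 with the 2 constructs.

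The constructs were also set against each other. Wild-type MRTFA exceeded Y238A in 23 members and fell short of it in 9 in AT-3 (62.2% and 24.3%, against 34.8% and 31.4% of all genes, 66.2% in all; 22 higher without Egr4), and in 18 and 4 members in E0771 (48.6% and 10.8%, against 12.7% and 13.0%). With library totals in place of TMM scaling the median of all genes in AT-3 fell to -0.07 for wild type against empty vector and to -0.11 for wild type against Y238A, where it was 0.05. All genes then split into 5173 higher and 7075 lower for wild type against Y238A in AT-3, in place of 6206 and 5599, and the members into 22 higher and 9 lower. For wild type against Y238A in E0771 that scaling gave 1972 higher and 3246 lower in place of 2268 and 2326, and for Y238A against empty vector 1176 and 817 in place of 965 and 1184. The contrasts of the 2 constructs with empty vector share the 3 empty-vector libraries of the line.

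The FOS family supplies the partners with which JUN proteins form the AP-1 transcription factor. Fos and Fosb rose with wild-type MRTFA in both lines, Fosl2 was slightly lower in AT-3 and slightly higher in E0771, and Fosl1 did not pass in either. Fos, the founding serum-response gene, had 23.2, 20.1 and 21.6 CPM in the AT-3 wild-type libraries, 4.94, 4.64 and 4.301 CPM with Y238A and 3.17, 4.28 and 4.98 CPM with empty vector. In E0771 it had 3.57, 3.77 and 3.57 CPM with wild type, 0.7398, 0.304 and 0.8699 CPM with Y238A and 0.741, 0.821 and 0.823 CPM with empty vector. In both lines the wild-type libraries lay above all others of the line, while Y238A overlapped empty vector. The log2 fold change with wild type was 2.39 ± 0.19 in AT-3 (adjusted p = 9.01e-10) and 2.19 ± 0.22 in E0771 (adjusted p = 1.77e-07), and with Y238A it was 0.16 ± 0.19 in AT-3 (adjusted p = 0.543) and -0.32 ± 0.25 in E0771 (adjusted p = 0.472). Without the 4 carry-over libraries the E0771 change with wild type was 2.19 ± 0.29. Fosb showed 45.6, 30.3 and 29.6 CPM with wild type, 5.22, 3.84 and 4.13 CPM with Y238A and 1.97, 2.11 and 1.96 CPM with empty vector in AT-3. Its E0771 values were 4.48, 4.35 and 3.88 CPM with wild type, 2.24, 1.89 and 1.81 CPM with Y238A and 1.46, 1.22 and 1.31 CPM with empty vector. The 3 groups did not overlap in either line and were ordered wild type, Y238A, empty vector. Fosb rose by 4.13 ± 0.17 with wild type and 1.13 ± 0.16 with Y238A in AT-3, and by 1.67 ± 0.17 with wild type and 0.57 ± 0.18 with Y238A in E0771. The E0771 change with Y238A (adjusted p = 0.0404) was lost without the 4 carry-over libraries (adjusted p = 0.316), and on leaving out AT-3 empty-vector replicate 1 or 2, E0771 wild-type replicate 2, E0771 Y238A replicate 1 or 2 or E0771 empty-vector replicate 1, 2 or 3 (adjusted p 0.0503 to 0.152).

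Fosl2, a FOS protein that lacks a strong activation domain, was the most abundant FOS transcript per length in AT-3. It had 286, 278 and 272 CPM with wild type, 235, 265 and 257 CPM with Y238A and 294, 331 and 324 CPM with empty vector in AT-3. In E0771 Fosl2 had 143, 145 and 147 CPM with wild type, 91.7, 95.2 and 93.4 CPM with Y238A and 126, 134 and 129.9 CPM with empty vector. Y238A libraries were the lowest of each line. The changes were small: -0.18 ± 0.05 with wild type and -0.33 ± 0.05 with Y238A in AT-3, and 0.16 ± 0.05 with wild type and -0.48 ± 0.05 with Y238A in E0771. The E0771 rise with wild type (adjusted p = 0.0216) was lost on leaving out E0771 wild-type replicate 2 (adjusted p = 0.061) or 3 (0.0706) or E0771 empty-vector replicate 1 (0.0949) or 3 (0.0607). Fosl1, a FOS protein tied to invasive growth in carcinoma, ranged over 18.9 to 23.1 CPM with wild type, 10.2 to 18.5 with Y238A and 15.2 to 21.3 with empty vector in AT-3. In E0771 Fosl1 ranged over 40.7 to 44.9 CPM with wild type, 46.2 to 65.5 CPM with Y238A and 43.5 to 46.5 CPM with empty vector. None of its 4 contrasts against empty vector passed (log2 fold change in AT-3 0.24 with wild type and -0.42 with Y238A, in E0771 -0.08 with wild type and 0.25 with Y238A). The AT-3 contrast with Y238A passed without the 4 carry-over libraries (adjusted p = 0.00134), and without AT-3 Y238A replicate 1 (adjusted p = 0.000876).

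JUN proteins, which bind DNA with FOS partners or each other, moved apart from one another. Junb rose and Jund fell with both constructs in both lines, and Jun rose with wild-type MRTFA. Junb, often a brake on Jun, had 315, 291 and 317 CPM with wild type, 234, 249.5 and 234 CPM with Y238A and 173, 168 and 181 CPM with empty vector in AT-3. In E0771 it had 83.9, 84.7 and 94.1 CPM with wild type, 75.4, 75.9 and 80.7 CPM with Y238A and 66.4, 68.9 and 69.97 CPM with empty vector. Wild-type and Y238A libraries all exceeded the empty-vector libraries. Junb rose by 0.82 ± 0.05 with wild type and 0.46 ± 0.05 with Y238A in AT-3, and by 0.36 ± 0.05 with wild type and 0.18 ± 0.05 with Y238A in E0771, the last of these (adjusted p = 0.0295) being lost without the 4 carry-over libraries (adjusted p = 0.124), and on leaving out E0771 Y238A replicate 3 (adjusted p = 0.102) or E0771 empty-vector replicate 1 (0.0945) or 2 (0.0795). Jund, the JUN member that is usually expressed in resting cells, had 21.9, 19.3 and 19.2 CPM with wild type, 43.9, 46.1 and 44.2 CPM with Y238A and 63.9, 65.96 and 71.7 CPM with empty vector in AT-3. Its E0771 values were 86.3, 83.6 and 82.2 CPM with wild type, 84.4, 86.01 and 85.4 CPM with Y238A and 113, 103 and 106 CPM with empty vector. No construct library overlapped an empty-vector library of its line. Jund fell in all 4 contrasts, with log2 fold changes in AT-3 of -1.74 ± 0.06 with wild type (adjusted p = 7.87e-16) and -0.59 ± 0.06 with Y238A, and in E0771 of -0.36 ± 0.06 with wild type and -0.34 ± 0.06 with Y238A.

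Jun itself had 157, 171 and 179.8 CPM with wild type, 91.7, 87.6 and 89.4 CPM with Y238A and 142, 143 and 142 CPM with empty vector in AT-3. In E0771 Jun had 108, 106 and 110.5 CPM with wild type, 67.9, 87.7 and 76.04 CPM with Y238A and 78.5, 80.2 and 81.5 CPM with empty vector. In AT-3 the empty-vector libraries lay between the other 2 groups. The rise of Jun with wild type was 0.25 ± 0.07 for AT-3 and 0.44 ± 0.07 for E0771. Under Y238A its change was -0.67 ± 0.07 in AT-3 (adjusted p = 4.98e-08) and -0.05 ± 0.07 in E0771 (adjusted p = 0.681). The AT-3 rise with wild type (adjusted p = 0.00229) was lost with library-total scaling (adjusted p = 0.213), and on leaving out AT-3 wild-type replicate 2 (adjusted p = 0.19) or 3 (0.366). Strand use in counting was not given, and 877 of the 1668 exonic bases of Jund lie opposite exons of Gm11175, 232 of 3189 of Jun opposite Junos, 173 of 2301 of Junb opposite Prdx2 and 1163 of 2033 of Fosl1 opposite Ccdc85b, so reads of these pairs cannot be told apart.

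Expressed per kilobase of exon, the make-up of AP-1 transcripts differed between groups. Jund made up 6.07% ± 0.51 of summed JUN-family CPM per kb with wild type, 16.9% ± 0.0715 with Y238A and 25.1% ± 0.796 with empty vector in AT-3 (mean ± SD, n = 3), while Junb made up 67.2% ± 1.37 with wild type, 65.4% ± 0.792 with Y238A and 47.1% ± 0.634 with empty vector. In E0771 the Jund share was 41.2% ± 1.51 with wild type, 46.9% ± 1.22 with Y238A and 54.03% ± 1.67 with empty vector. In the FOS family of AT-3, Fos reached 17% ± 0.919 with wild type, against 5.57% ± 0.2101 with Y238A and 4.03% ± 0.851 with empty vector. Fosl2 held 53.3% ± 0.511 with wild type, 73.9% ± 6.09 with Y238A and 74.98% ± 3.09 with empty vector, and in E0771 Fosl1 took the larger share, 54.9% ± 1.41 with wild type, 71.6% ± 3.71 with Y238A and 61.4% ± 0.934 with empty vector. AT-3 with wild-type MRTFA had the lowest Jund and Fosl2 shares of the 3 AT-3 groups, with no overlap between libraries.

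**Figure D2:**
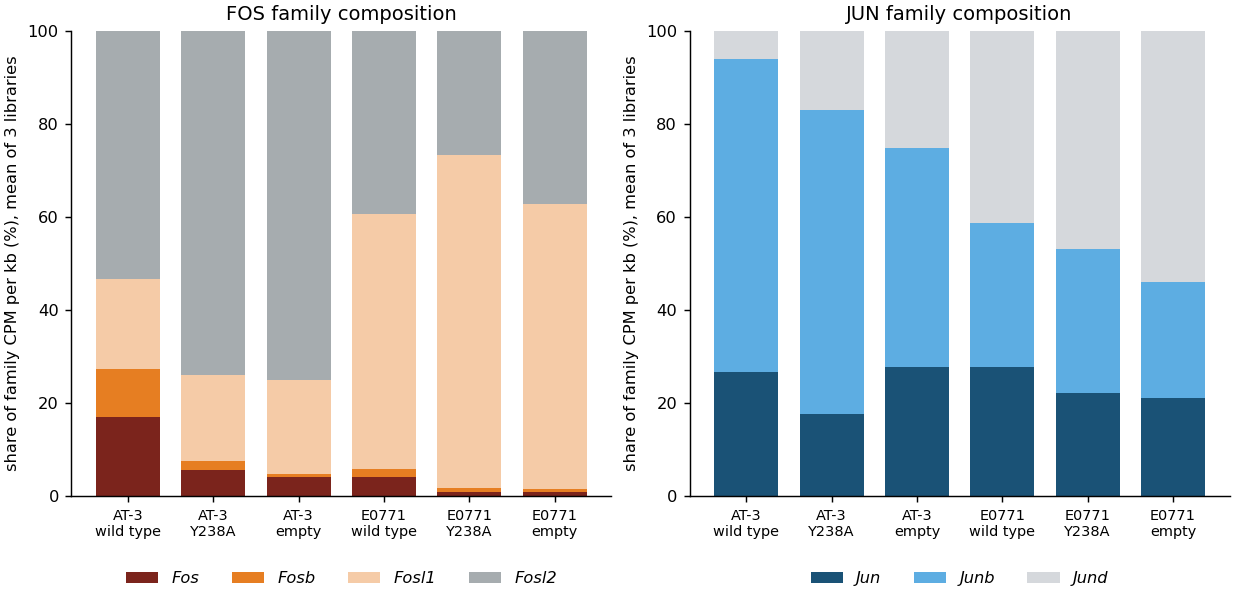
Share of summed CPM per kb of exon within the FOS family (left) and the JUN family (right), as the mean of 3 libraries per group, with bars from 0 to 100%. In AT-3 with wild-type MRTFA, the shares of Fos and Fosb are larger and that of Fosl2 smaller than in the other AT-3 groups, and Jund is 6.07% ± 0.51 of the JUN family.

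Of the EGR genes, zinc-finger factors held in check by NAB corepressors, Egr1, Egr2 and Egr3 rose with wild-type MRTFA and fell with Y238A in AT-3. Egr1 had 83.9, 78.2 and 82.3 CPM with wild type, 24.9, 19.03 and 20.03 CPM with Y238A and 53.4, 48.9 and 54.2 CPM with empty vector. Egr2 had 21.5, 18.8 and 19.8 CPM with wild type, 4.23, 2.24 and 2.33 CPM with Y238A and 7.08, 6.73 and 6.98 CPM with empty vector, and Egr3 had 51.2, 34.7 and 36 CPM with wild type, 3.17, 1.27 and 1.04 CPM with Y238A and 4.35, 3.27 and 3.21 CPM with empty vector. For each of these 3 genes the empty-vector libraries lay between the wild-type and the Y238A libraries. With wild type the log2 fold changes were 0.64 ± 0.22 for Egr1, 1.53 ± 0.20 for Egr2 and 3.49 ± 0.31 for Egr3, and with Y238A they were -1.29 ± 0.23 for Egr1, -1.24 ± 0.21 for Egr2 and -0.98 ± 0.32 for Egr3. The Egr1 rise (adjusted p = 0.0193) was lost with library-total scaling (adjusted p = 0.06) and with DESeq2 (adjusted p = 0.178), and on leaving out AT-3 wild-type replicate 2 (adjusted p = 0.0774) or 3 (0.0959) or AT-3 empty-vector replicate 1 (0.0502) or 2 (0.0679). The Egr3 fall with Y238A (adjusted p = 0.0212) was lost in a fit of the line alone (adjusted p = 0.114), and on leaving out AT-3 Y238A replicate 2 (adjusted p = 0.0931) or 3 (0.0817) or AT-3 empty-vector replicate 1 (0.0881). Without Y238A replicate 1, the AT-3 Y238A library with the highest share of wild-type transcripts, the change was -1.64. Against Y238A, wild type was higher by 1.93 ± 0.23 for Egr1, 2.77 ± 0.21 for Egr2 and 4.47 ± 0.33 for Egr3, the last being 5.13 without that library.

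Egr4, an EGR gene best known from neurons, was nearly silent in AT-3 with empty vector. It had 109, 86.1 and 89.4 CPM with wild type, 1.57, 0.3598 and 0.04196 CPM with Y238A and 0.0463, 0.0211 and 0.124 CPM with empty vector, where these values came from 4, 2 and 10 counts. The wild-type libraries stood far above all others, while Y238A overlapped empty vector. Since Egr4 entered the test only through the AT-3 wild-type libraries, its values are a description and no test is given. Its group means were 94.7 ± 12.3 CPM with wild type, 0.657 ± 0.805 CPM with Y238A and 0.0637 ± 0.0535 CPM with empty vector (SD, n = 3). The Y238A mean rested mostly on replicate 1, where the 33 genes described above were at a median of 1.29% of the wild-type level. Per kilobase Egr4 made up 56.9% ± 0.9503 of the EGR family with wild type, against 4.11% ± 4.33 with Y238A and 0.2005% ± 0.165 with empty vector, where Egr1 held 80.1% ± 0.803. Egr4 is given in this detail because its change had been seen; it was outside the rule for values by library.

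In E0771 the EGR genes were at low levels and Egr1 and Egr3 rose with wild-type MRTFA. Egr1 had 1.005, 1.55 and 1.98 CPM with wild type, 0.417, 0.0651 and 0.183 CPM with Y238A and 0.154, 0.632 and 0.353 CPM with empty vector, and Egr3 had 5.18, 5.11 and 6.604 CPM with wild type, 1.85, 1.41 and 1.71 CPM with Y238A and 0.982, 1.02 and 1.27 CPM with empty vector. The wild-type libraries lay above all others for both genes. Egr1 rose by 1.99 ± 0.41 (adjusted p = 0.00273) and Egr3 by 2.36 ± 0.33 (adjusted p = 7.83e-05). Without the 4 carry-over libraries the values were 2.52 ± 0.35 for Egr1 (adjusted p = 0.000145) and 2.38 ± 0.23 for Egr3 (adjusted p = 1.06e-06). Wild type exceeded Y238A by 2.68 ± 0.46 for Egr1, or 3.58 without Y238A replicate 1, and by 1.76 ± 0.32 for Egr3. Egr2 had 6, 12 and 2 counts with wild type, 2, 0 and 0 with Y238A and 4, 2 and 2 with empty vector, and its change of 1.31 ± 0.75 did not pass (adjusted p = 0.227). Egr2 was higher with wild type than with Y238A by 3.06 ± 1.01 (adjusted p = 0.0296), or 5.72 without Y238A replicate 1, a call lost on leaving out E0771 wild-type replicate 2 (adjusted p = 0.175) or E0771 Y238A replicate 2 (0.107) or 3 (0.0935). Egr4 had 0, 20 and 0 counts with wild type, 10, 0 and 0 with Y238A and 0, 0 and 0 with empty vector, and no fold is given. The libraries above 0 were 2 of those named carry-over libraries above.

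**Figure D3:**
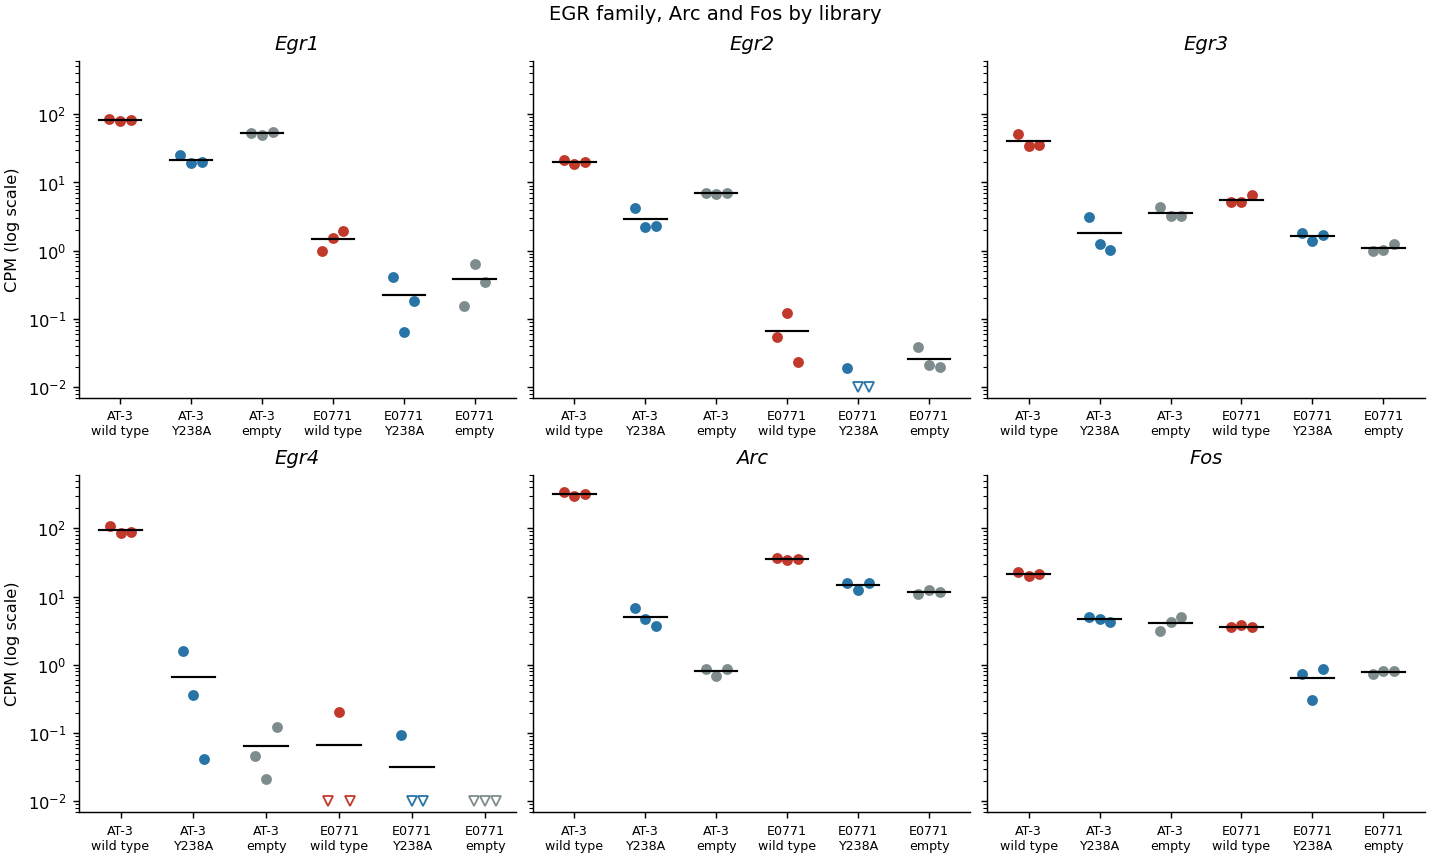
CPM of the EGR genes, Arc and Fos in each library (points) with the group mean (bar) on a shared log axis, wild type in red, Y238A in blue and empty vector in grey. Open triangles at the bottom edge mark libraries with 0 counts. All wild-type points lie above the other points of their line, except for Egr2 and Egr4 in E0771, and the AT-3 empty-vector points of Egr1, Egr2 and Egr3 sit between the other groups.

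NR4A genes encode orphan nuclear receptors that act without a known ligand. All 3 rose with both constructs in AT-3, and in E0771 Nr4a3 rose with wild type and Nr4a2 with Y238A. Nr4a3 had 84.5, 55.3 and 54.6 CPM with wild type, 18.1, 16.3 and 14.2 CPM with Y238A and 2.98, 2.802 and 3.19 CPM with empty vector in AT-3. In E0771 Nr4a3 had 3.25, 2.75 and 3.07 CPM with wild type, 0.778, 0.651 and 0.527 CPM with Y238A and 0.674, 0.842 and 1.14 CPM with empty vector. Nr4a1 had 129, 105 and 102 CPM with wild type, 32.8, 26.5 and 23.8 CPM with Y238A and 16.6, 16.01 and 15.5 CPM with empty vector in AT-3, and in E0771 it lay between 10.6 and 13.97 CPM with overlapping groups. For both genes the AT-3 groups were ordered wild type, Y238A, empty vector without overlap. The AT-3 changes were 4.44 ± 0.18 with wild type and 2.44 ± 0.17 with Y238A for Nr4a3, and 2.80 ± 0.13 with wild type and 0.79 ± 0.12 with Y238A for Nr4a1. In E0771 the wild-type change was 1.77 ± 0.20 for Nr4a3 (adjusted p = 2.66e-06) and -0.07 ± 0.13 for Nr4a1 (adjusted p = 0.768), and without the 4 carry-over libraries that of Nr4a3 was 1.81 ± 0.26. Nr4a2 ran in another order, with 32.1, 26.1 and 22.5 CPM with wild type, 50.2, 52.7 and 50.1 CPM with Y238A and 13.1, 13.6 and 15.9 CPM with empty vector in AT-3. In E0771 Nr4a2 had 2.75, 3.58 and 3.498 CPM with wild type, 5.54, 4.88 and 5.3 CPM with Y238A and 2.73, 3.02 and 4.11 CPM with empty vector. Y238A libraries were the highest in both lines. Nr4a2 rose by 0.92 ± 0.13 with wild type and 1.85 ± 0.14 with Y238A in AT-3, and wild type against Y238A was -0.92 ± 0.13 in AT-3 and -0.68 ± 0.15 in E0771. The E0771 rise with Y238A was 0.67 ± 0.15 (adjusted p = 0.00564), lost without the 4 carry-over libraries (adjusted p = 0.114).

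Among KLF zinc-finger factors, wild-type MRTFA in AT-3 raised Klf6 and lowered Klf4 and Klf10, and Klf4 also fell in E0771. Klf6, a widely expressed growth regulator, had 386, 383 and 364 CPM with wild type, 169.7, 163 and 149.6 CPM with Y238A and 169, 174 and 161 CPM with empty vector in AT-3. In E0771 Klf6 had 260.2, 255 and 242 CPM with wild type, 198, 211 and 181 CPM with Y238A and 234, 235 and 220.3 CPM with empty vector. It rose by 1.17 ± 0.06 in AT-3. In E0771 its change with wild type was 0.14 ± 0.06 (adjusted p = 0.0814), and it passed with the replicate number as a block (adjusted p = 0.0107). Klf4, a pluripotency and differentiation factor, had 24.7, 22.1 and 25.04 CPM with wild type, 47.9, 43.5 and 43.3 CPM with Y238A and 54.1, 41.7 and 43.8 CPM with empty vector in AT-3. In E0771 Klf4 had 28.7, 26.1 and 25.5 CPM with wild type, 37.6, 41.7 and 36.97 CPM with Y238A and 44.2, 36.4 and 39.9 CPM with empty vector. Wild-type libraries were the lowest of both lines, with log2 fold changes against empty vector of -0.96 ± 0.09 in AT-3 and -0.58 ± 0.09 in E0771. Klf10, a factor first described as induced by TGF-beta, had 10.4, 11.3 and 11.5 CPM with wild type, 62.1, 62.1 and 55.7 CPM with Y238A and 19.6, 17.4 and 16.9 CPM with empty vector in AT-3. In E0771 Klf10 had 29.2, 27.3 and 28.7 CPM with wild type, 38.7, 35.5 and 35.98 CPM with Y238A and 28.8, 28.3 and 31.4 CPM with empty vector. The AT-3 groups did not overlap, with empty vector in the middle. Klf10 fell with wild type in AT-3 (-0.70 ± 0.07) and rose with Y238A (1.74 ± 0.07), and in E0771 it changed by -0.05 ± 0.07 with wild type (adjusted p = 0.638) and 0.32 ± 0.07 with Y238A (adjusted p = 0.00441), the Y238A call being lost without the 4 carry-over libraries (adjusted p = 0.139).

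Klf2, an endothelial and lymphocyte quiescence factor, was the KLF with the widest gap between lines. It ranged over 3.18 to 4.098 CPM with wild type, 2.16 to 2.92 with Y238A and 4.8 to 4.97 with empty vector in AT-3. In E0771 Klf2 ranged over 35.1 to 53.3 CPM with wild type, 28.5 to 48.3 CPM with Y238A and 52.9 to 78.5 CPM with empty vector. It fell with Y238A in AT-3 (-0.95 ± 0.25, adjusted p = 0.00655). The wild-type change was -0.46 ± 0.24 in AT-3 (adjusted p = 0.109), which passed with library-total scaling (adjusted p = 0.0412) and in a fit of the line alone (adjusted p = 0.0099), and without AT-3 wild-type replicate 3 (adjusted p = 0.0454). In E0771 it was -0.58 ± 0.20 (adjusted p = 0.0513), which passed with library-total scaling (adjusted p = 0.0445), with DESeq2 (adjusted p = 0.0312) and with the replicate block (adjusted p = 0.0282), and on leaving out E0771 wild-type replicate 1 (adjusted p = 0.0134), E0771 Y238A replicate 2 (0.0435) or 3 (0.0203) or E0771 empty-vector replicate 3 (0.0403).

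In AT-3, wild-type MRTFA raised Atf3, Maff and Csrnp1 and lowered Myc. Atf3, a stress-induced bZIP factor, had 56.5, 54.6 and 48.8 CPM with wild type, 16.1, 15.7 and 15.7 CPM with Y238A and 8.81, 7.39 and 6.66 CPM with empty vector in AT-3. In E0771 Atf3 had 20.7, 19.8 and 23.5 CPM with wild type, 15.2, 29.8 and 13.4 CPM with Y238A and 22.2, 20.8 and 21.9 CPM with empty vector, where Y238A replicate 2 was the highest library. The AT-3 groups did not overlap, and Atf3 rose by 2.81 ± 0.23 with wild type and 1.05 ± 0.23 with Y238A. In E0771 its changes were -0.02 ± 0.22 with wild type (adjusted p = 0.988) and -0.15 ± 0.22 with Y238A (adjusted p = 0.732), and the Y238A change passed at -0.60 without Y238A replicate 2 (adjusted p = 0.000228). Maff, a small MAF protein without an activation domain, had 183, 179.9 and 175 CPM with wild type, 47.7, 42.7 and 35.6 CPM with Y238A and 40.4, 36.7 and 33.6 CPM with empty vector in AT-3. In E0771 Maff had 18.8, 19.7 and 17.1 CPM with wild type, 14.8, 12.4 and 15.2 CPM with Y238A and 12.9, 14.7 and 13.6 CPM with empty vector. Only wild-type libraries stood apart from empty vector, by 2.28 ± 0.10 in AT-3 and 0.43 ± 0.10 in E0771. Myc, the growth-promoting oncoprotein, had 77.1, 93.1 and 89.97 CPM with wild type, 165, 151 and 126 CPM with Y238A and 184, 173 and 151 CPM with empty vector in AT-3. In E0771 Myc had 765, 642 and 656 CPM with wild type, 738, 1072 and 617 CPM with Y238A and 757, 702 and 713 CPM with empty vector. It fell with wild type in AT-3 (-0.97 ± 0.17, adjusted p = 0.000217), and its E0771 groups overlapped.

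Csrnp1, a nuclear protein induced by axin, had 22.7, 23.1 and 22.8 CPM with wild type, 13.2, 12.6 and 11.5 CPM with Y238A and 12.6, 12.4 and 11.5 CPM with empty vector in AT-3. In E0771 Csrnp1 had 17.5, 14.6 and 14.97 CPM with wild type, 10.3, 9.71 and 9.71 CPM with Y238A and 12.9, 11.5 and 11.8 CPM with empty vector. Its wild-type libraries were the highest of each line. Csrnp1 rose by 0.91 ± 0.08 in AT-3 with wild type, and by 0.38 ± 0.08 in E0771 with wild type. Its change with Y238A was 0.03 ± 0.08 in AT-3 (adjusted p = 0.825) and -0.28 ± 0.08 in E0771 (adjusted p = 0.035). The last call was lost with library-total scaling (adjusted p = 0.0755), with a stricter low-count filter (adjusted p = 0.0606), in a fit of the line alone (adjusted p = 0.0975) and without the 4 carry-over libraries (adjusted p = 0.0772), and on leaving out AT-3 wild-type replicate 2 or 3, E0771 Y238A replicate 2 or 3 or E0771 empty-vector replicate 1 or 3 (adjusted p 0.0622 to 0.125). Of the 3473 exonic bases of Csrnp1, 224 lie opposite exons of 1700019L13Rik.

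The IER genes split by construct in AT-3. Ier2, a short nuclear protein induced by serum, rose with wild type and fell with Y238A, whereas Ier3 rose with Y238A, and Ier5l fell with wild type and rose with Y238A. Ier2 had 215, 202 and 195 CPM with wild type, 59.4, 54.3 and 54.4 CPM with Y238A and 69.5, 68.5 and 71.99 CPM with empty vector in AT-3. In E0771 Ier2 had 53.04, 52.3 and 54.5 CPM with wild type, 40.2, 41.2 and 41.7 CPM with Y238A and 38.4, 41.6 and 40.1 CPM with empty vector. The wild-type libraries lay above the rest in both lines, by 1.54 ± 0.05 in AT-3 and 0.41 ± 0.05 in E0771 over empty vector, and Y238A in AT-3 lay below it (-0.32 ± 0.05). Ier3, a survival-associated stress protein, had 72.9, 85.4 and 83.8 CPM with wild type, 193, 189 and 171 CPM with Y238A and 92.2, 89.02 and 81.9 CPM with empty vector in AT-3. In E0771 Ier3 had 51.2, 54.1 and 53.4 CPM with wild type, 48.7, 53.4 and 53.3 CPM with Y238A and 47.2, 49.6 and 47.1 CPM with empty vector. In AT-3 the Y238A libraries stood apart, by 1.07 ± 0.06 over empty vector (adjusted p = 3.35e-11) and wild type was lower than Y238A (-1.19 ± 0.06). The wild-type change of Ier3 was -0.12 ± 0.06 in AT-3 (adjusted p = 0.0967), which passed with library-total scaling (adjusted p = 0.000468), and on leaving out AT-3 wild-type replicate 2 (adjusted p = 0.0011) or 3 (0.00202) or AT-3 empty-vector replicate 3 (0.0412), and 0.14 ± 0.06 in E0771 (adjusted p = 0.117), which passed with a stricter low-count filter (adjusted p = 0.0159) and in a fit of the line alone (adjusted p = 0.0211), and on leaving out AT-3 wild-type replicate 2 (adjusted p = 0.0268) or 3 (0.0298).

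Ier5l, the close relative of Ier5, had 31.7, 32.9 and 39.1 CPM with wild type, 156, 178 and 155 CPM with Y238A and 106, 107 and 112 CPM with empty vector in AT-3. In E0771 Ier5l had 119, 126 and 117 CPM with wild type, 146, 113 and 146 CPM with Y238A and 143, 141 and 129 CPM with empty vector. In AT-3 the 3 groups did not overlap and empty vector was in the middle, at -1.65 ± 0.09 for wild type and 0.59 ± 0.09 for Y238A. In E0771 the changes were -0.19 ± 0.09 with wild type (adjusted p = 0.142) and -0.02 ± 0.09 with Y238A (adjusted p = 0.927). Ier5, which binds the heat shock factor HSF1, had 107, 112 and 106 CPM with wild type, 79.97, 71.02 and 72.8 CPM with Y238A and 96.2, 94.5 and 84.8 CPM with empty vector in AT-3. In E0771 Ier5 had 180.1, 161 and 158 CPM with wild type, 167, 167 and 161 CPM with Y238A and 176, 179 and 165 CPM with empty vector. Its AT-3 changes were small, 0.24 ± 0.06 with wild type and -0.30 ± 0.06 with Y238A. The first (adjusted p = 0.00135) was lost with library-total scaling (adjusted p = 0.219), and on leaving out AT-3 wild-type replicate 2 (adjusted p = 0.232) or 3 (0.0902).

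Of the DUSP phosphatases, Dusp2 and Dusp5 rose most with wild-type MRTFA in AT-3, Dusp1 rose in E0771, Dusp6 rose with both constructs in both lines, and no contrast of Dusp4 with empty vector passed. Dusp2, a nuclear ERK and p38 phosphatase of immune cells, had 23.1, 18.6 and 24.03 CPM with wild type, 0.635, 0.4998 and 0.4196 CPM with Y238A and 0.278, 0.0843 and 0.149 CPM with empty vector in AT-3. In E0771 Dusp2 had 24.01, 21.9 and 18.5 CPM with wild type, 25.7, 30.2 and 18.9 CPM with Y238A and 18.3, 17.1 and 13.8 CPM with empty vector. AT-3 with wild type had levels within the range of the E0771 libraries, while AT-3 with empty vector had 24, 8 and 12 counts. The rise in AT-3 was 7.01 ± 0.28 with wild type and 1.62 ± 0.40 with Y238A, the second being 1.45 ± 0.48 without the 4 carry-over libraries. In E0771 the change was 0.39 ± 0.17 with wild type (adjusted p = 0.115) and 0.61 ± 0.17 with Y238A (adjusted p = 0.0308), the Y238A call being lost with no low-count filter (adjusted p = 0.059) and without the 4 carry-over libraries (adjusted p = 0.16), and on leaving out E0771 Y238A replicate 1 (adjusted p = 0.0805) or 2 (0.117) or E0771 empty-vector replicate 2 (0.0728) or 3 (0.126). Dusp5, a nuclear phosphatase specific for ERK with a pair of CArG boxes shown above, had 64.3, 67.1 and 61.8 CPM with wild type, 21.9, 16.6 and 14.6 CPM with Y238A and 20.5, 15.7 and 13.9 CPM with empty vector in AT-3. In E0771 Dusp5 had 47.01, 43.7 and 39.9 CPM with wild type, 28.4, 27.9 and 25.9 CPM with Y238A and 23.5, 24.2 and 23.3 CPM with empty vector. Its wild-type libraries were the highest of each line, by 1.95 ± 0.14 in AT-3 and 0.88 ± 0.13 in E0771 over empty vector, and the Y238A changes of 0.08 ± 0.13 in AT-3 (adjusted p = 0.674) and 0.21 ± 0.13 in E0771 (adjusted p = 0.34) did not pass. Exons of AC137853.2 lie opposite 547 of the 2473 exonic bases of Dusp5.

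Dusp6, the cytoplasmic ERK phosphatase, had 27.2, 29.6 and 30.7 CPM with wild type, 35.9, 29.1 and 24.4 CPM with Y238A and 23.99, 21.4 and 19.4 CPM with empty vector in AT-3. In E0771 it had 27.5, 25.8 and 24.6 CPM with wild type, 39.98, 40.6 and 40.9 CPM with Y238A and 16.6, 16.2 and 16.5 CPM with empty vector. In E0771 the groups were ordered Y238A, wild type, empty vector without overlap, and in AT-3 the 2 constructs overlapped. Dusp6 rose by 0.43 ± 0.10 with wild type and 0.46 ± 0.10 with Y238A in AT-3 and by 0.66 ± 0.10 with wild type and 1.30 ± 0.10 with Y238A in E0771, where wild type was lower than Y238A (-0.64 ± 0.10, adjusted p = 5.1e-05). Dusp1, the stress-induced nuclear phosphatase, ranged over 107 to 139 CPM with wild type, 131 to 148 with Y238A and 103 to 110.1 with empty vector in AT-3. In E0771 Dusp1 ranged over 44.1 to 57.2 CPM with wild type, 18.4 to 31.9 CPM with Y238A and 24.3 to 30.4 CPM with empty vector. It rose with wild type in E0771 by 0.84 ± 0.17 (adjusted p = 0.00278). Its AT-3 change was 0.26 ± 0.17 (adjusted p = 0.189), which passed in a fit of the line alone (adjusted p = 0.0168). Dusp4 ranged over 26.4 to 31.1 CPM with wild type, 15.6 to 30.3 CPM with Y238A and 21.7 to 33.5 CPM with empty vector in AT-3. In E0771 it ranged over 100.3 to 103 CPM with wild type, 122 to 134 CPM with Y238A and 105 to 109 CPM with empty vector. Its wild-type changes were 0.11 ± 0.19 in AT-3 (adjusted p = 0.645) and -0.07 ± 0.18 in E0771 (adjusted p = 0.85). With Y238A Dusp4 changed by -0.27 ± 0.19 in AT-3 (adjusted p = 0.288), which passed without the 4 carry-over libraries (adjusted p = 0.0206), and without AT-3 Y238A replicate 1 (adjusted p = 0.0158), at -0.53 in both cases. In E0771 its Y238A change was 0.28 ± 0.18 (adjusted p = 0.383), which passed in a fit of the line alone (adjusted p = 0.00222).

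Among the remaining feedback and effector genes, Zfp36, Btg2 and Arc rose with wild-type MRTFA in both lines. Arc, a neuronal activity-regulated cytoskeletal protein, had 343, 298 and 321 CPM with wild type, 6.75, 4.62 and 3.73 CPM with Y238A and 0.879, 0.695 and 0.866 CPM with empty vector in AT-3. In E0771 it had 36.4, 34.02 and 35.3 CPM with wild type, 16.05, 12.6 and 15.9 CPM with Y238A and 10.8, 12.3 and 11.5 CPM with empty vector. The AT-3 wild-type libraries held the highest Arc levels of the series, and the AT-3 empty-vector libraries the lowest. Arc rose by 8.63 ± 0.21 with wild type (adjusted p = 2.08e-14) and 2.64 ± 0.22 with Y238A in AT-3, and by 1.61 ± 0.15 with wild type in E0771 (adjusted p = 8.83e-07). The E0771 change with Y238A was 0.36 ± 0.15 (adjusted p = 0.129), which passed with DESeq2 (adjusted p = 0.0367) and in a fit of the line alone (adjusted p = 0.02), and on leaving out AT-3 Y238A replicate 1 (adjusted p = 0.0139) or 3 (0.0498). Without the 4 carry-over libraries the AT-3 change with Y238A was 2.37 ± 0.14 and the E0771 change with wild type 1.69 ± 0.11.

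Zfp36 encodes tristetraprolin, which promotes decay of AU-rich mRNAs. It had 110.0, 107 and 102 CPM with wild type, 34.3, 35.3 and 27.5 CPM with Y238A and 19.4, 17.7 and 16.5 CPM with empty vector in AT-3. In E0771 Zfp36 had 39.5, 36.2 and 35.3 CPM with wild type, 15.95, 12.7 and 16.4 CPM with Y238A and 12.2, 12.5 and 12.04 CPM with empty vector. Groups were ordered wild type, Y238A, empty vector without overlap in both lines. Zfp36, whose CArG box is shown above, rose by 2.57 ± 0.10 with wild type and 0.86 ± 0.09 with Y238A in AT-3 and by 1.60 ± 0.10 with wild type in E0771, and its change with Y238A in E0771 was 0.29 ± 0.10 (adjusted p = 0.0531). That change passed with DESeq2 size factors (adjusted p = 0.041), with library-total scaling (adjusted p = 0.0365), with DESeq2 (adjusted p = 0.0169) and with a stricter low-count filter (adjusted p = 0.0266), and on leaving out AT-3 wild-type replicate 2 (adjusted p = 0.0462) or 3 (0.0422), AT-3 Y238A replicate 3 (0.0284) or E0771 Y238A replicate 2 (0.004). Exons of Gm44710 lie opposite 125 of its 3470 exonic bases. Its relative Zfp36l1 had 43.7, 39.97 and 38.7 CPM with wild type, 62.02, 63.9 and 62.96 CPM with Y238A and 63, 68.1 and 72.9 CPM with empty vector in AT-3. In E0771 Zfp36l1 had 23.7, 23.4 and 25.4 CPM with wild type, 24.8, 26.8 and 28.7 CPM with Y238A and 24.3, 24.1 and 24.6 CPM with empty vector. Zfp36l1 fell with wild type in AT-3 (-0.74 ± 0.06), the wild-type libraries being the lowest of the line.

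Btg2, an antiproliferative protein that recruits the CCR4-NOT deadenylase, rose with both constructs in both lines. It had 19.01, 15.8 and 16.7 CPM with wild type, 17.7, 20.2 and 16.1 CPM with Y238A and 3.897, 4.01 and 5.52 CPM with empty vector in AT-3. In E0771 Btg2 had 5.27, 5.36 and 5.59 CPM with wild type, 5.39, 7.23 and 4.72 CPM with Y238A and 1.91, 2.04 and 1.69 CPM with empty vector. Construct libraries overlapped each other and all exceeded empty vector. Btg2 rose by 1.94 ± 0.15 with wild type and 2.01 ± 0.15 with Y238A in AT-3 and by 1.53 ± 0.16 with wild type and 1.62 ± 0.16 with Y238A in E0771, and wild type against Y238A was -0.07 ± 0.14 in AT-3 (adjusted p = 0.695) and -0.10 ± 0.15 in E0771 (adjusted p = 0.718), neither passing. Gadd45b, a stress sensor that activates a MAP kinase kinase kinase, had 82.1, 85.9 and 91.7 CPM with wild type, 33.3, 36.8 and 32.8 CPM with Y238A and 50.3, 54.1 and 51.9 CPM with empty vector in AT-3. In E0771 Gadd45b had 22.7, 22.5 and 21.5 CPM with wild type, 19.8, 13.2 and 17.1 CPM with Y238A and 21.2, 24.4 and 21.4 CPM with empty vector. In AT-3 empty vector lay between the others, at 0.73 ± 0.10 for wild type and -0.60 ± 0.10 for Y238A. In E0771 the Y238A libraries were the lowest (-0.42 ± 0.10, adjusted p = 0.0104), a call lost without E0771 empty-vector replicate 2 (adjusted p = 0.0562). Trib1, a pseudokinase scaffold for protein degradation, ranged over 65.9 to 74.8 CPM with wild type, 72.9 to 79.5 with Y238A and 67.5 to 70.8 with empty vector in AT-3. In E0771 Trib1 ranged over 65.2 to 66.7 CPM with wild type, 57.1 to 66.6 CPM with Y238A and 69.6 to 71.6 CPM with empty vector. Its AT-3 change with wild type was 0.02 ± 0.06 (adjusted p = 0.788) and turned to -0.13 with library-total scaling (adjusted p = 0.0483). The AT-3 rise with Y238A was 0.15 ± 0.06 (adjusted p = 0.0392), lost with DESeq2 size factors (adjusted p = 0.0667), with DESeq2 (adjusted p = 0.0598) and without the 4 carry-over libraries (adjusted p = 0.178), and on leaving out AT-3 wild-type replicate 2 or 3, AT-3 Y238A replicate 1 or 2 or AT-3 empty-vector replicate 1 or 3 (adjusted p 0.0706 to 0.147).

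**Figure D4:**
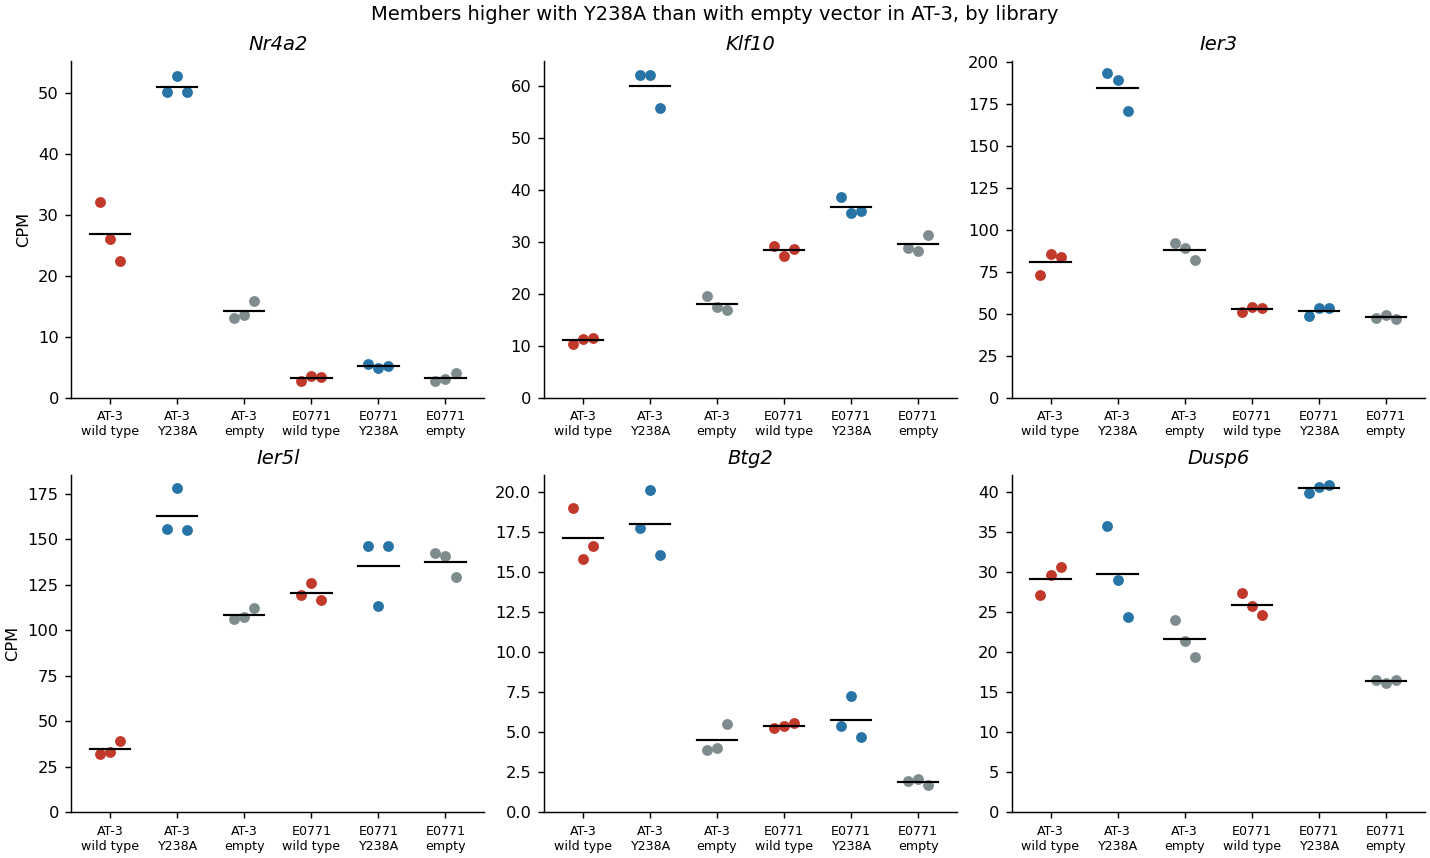
CPM of 6 members that rose with Y238A in AT-3, per library (points) with the group mean (bar), linear axes from 0, wild type in red, Y238A in blue and empty vector in grey. Y238A is the highest AT-3 group for Nr4a2, Klf10, Ier3 and Ier5l, the 2 constructs overlap in AT-3 for Btg2 and Dusp6, and Dusp6 separates all 3 groups in E0771.

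Changes were compared between lines, as the AT-3 effect minus the E0771 effect. With wild-type MRTFA 15 members rose in both lines, 62.5% of the 24 that rose in AT-3 and 88.2% of the 17 in E0771. Over all tested genes 1673 rose in both, 25.8% of those that rose in AT-3 and 83.7% of those in E0771, so the E0771 share of the members lay near that of all genes. Jund and Klf4 fell in both lines. The difference itself passed for 26 members, 17 with the AT-3 effect higher (45.9%) and 9 with it lower (24.3%), against 24.0% and 23.3% of all genes (47.3% in all). With library totals all genes split into 3536 higher and 5269 lower in place of 4285 and 4149, and the members into 15 and 12. The largest differences were in Arc (7.02 ± 0.25), Dusp2 (6.62 ± 0.35), Nr4a1 (2.87 ± 0.18), Atf3 (2.83 ± 0.32) and Nr4a3 (2.66 ± 0.27), all higher in AT-3. On the other side stood Ier5l (-1.46 ± 0.13), Jund (-1.38 ± 0.08) and Egr1 (-1.34 ± 0.47, adjusted p = 0.0314). The Egr1 call was lost with DESeq2 (adjusted p = 0.0725) and with no low-count filter (adjusted p = 0.052), and on leaving out AT-3 empty-vector replicate 1 or 3, E0771 wild-type replicate 2 or 3 or E0771 empty-vector replicate 1 or 3 (adjusted p 0.0535 to 0.104). Fos differed by 0.19 ± 0.29 (adjusted p = 0.64) and Btg2 by 0.42 ± 0.22 (adjusted p = 0.132), neither passing.

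For Y238A, 7 members rose in both lines (Fosb, Junb, Nr4a2, Klf10, Dusp2, Dusp6 and Btg2), 46.7% of 15 in AT-3 and all 7 of E0771, against 16.9% and 67.2% of all genes that rose. Fosl2, Jund and Gadd45b fell in both, 30% of 10 in AT-3 and 60% of 5 in E0771, against 19.2% and 64.1% of all genes that fell. The difference passed for 11 members with the AT-3 effect higher and 6 with it lower (29.7% and 16.2%), against 13.6% and 12.2% of all genes, the 6 becoming 3 without E0771 empty-vector replicate 2. Nr4a3 (2.87 ± 0.30), Arc (2.27 ± 0.27) and Klf10 (1.42 ± 0.10) differed most toward AT-3. Dusp6 (-0.84 ± 0.14) and Jun (-0.62 ± 0.09) differed the other way. The construct level was higher in AT-3 than in E0771 with either form, so line and construct amount cannot be told apart in these differences.

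**Figure D5:**
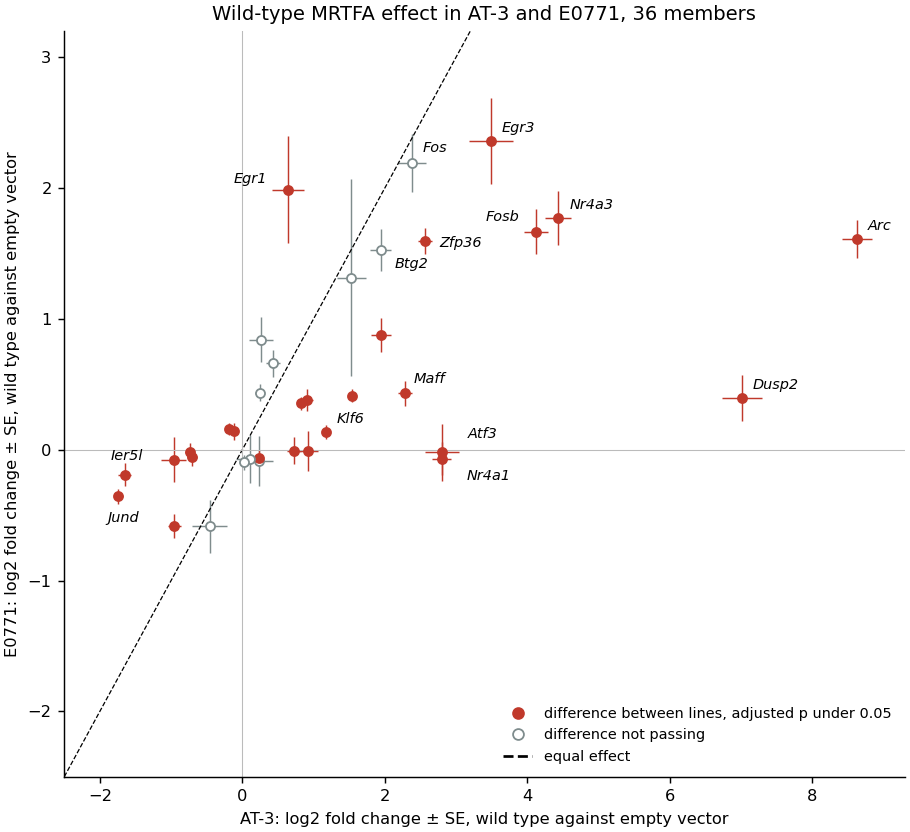
Log2 fold change ± SE of 36 members with wild-type MRTFA, against empty vector, AT-3 horizontal and E0771 vertical, Egr4 left out, with a dashed line of equal effect and 3 libraries per group. Filled red points had a difference between lines with an adjusted p under 0.05. Arc and Dusp2 lie far to the right of the line, Fos and Btg2 near it, and Atf3 and Nr4a1 at about 0 in E0771.

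With empty vector the lines already differed in most members. AT-3 was higher than E0771 in 21 members and lower in 13 (56.8% and 35.1%), against 36.8% and 35.2% of all genes. Egr2 (7.96 ± 0.38) and Egr1 (7.12 ± 0.34) were far higher in AT-3, and Dusp2 (-6.59 ± 0.29), Arc (-3.83 ± 0.20), Klf2 (-3.70 ± 0.23) and Myc (-2.10 ± 0.18) were far lower. Without the 4 carry-over libraries the Egr1 difference was 7.68 ± 0.27 and the Egr2 difference 7.83 ± 0.27. Compared per length, Myc led the members in E0771 with empty vector, at 267 ± 10.7 CPM per kb (SD, n = 3), followed by Jund at 64.5 ± 3.08. In AT-3 with empty vector Ier3 (77.5 ± 4.68 CPM per kb) and Junb (75.6 ± 2.96 CPM per kb) were highest, with overlapping spreads. With wild-type MRTFA in AT-3, Ier2 (134 ± 6.76), Junb (134 ± 6.31) and Arc (105 ± 7.32) headed the order, and with Y238A it was Ier3 (163 ± 10.6). Arc had rank 35 of the 37 with empty vector, at 0.266 ± 0.0336 CPM per kb.

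Other genes of the same pathway were counted from a list of 59 ternary complex factors, ERK kinases, feedback genes and further early response genes. With wild-type MRTFA, 30 rose and 21 fell in AT-3 (50.8% and 35.6%, against 36.4% and 32.2% of all genes), and 17 rose and 10 fell in E0771 (28.8% and 16.9%, against 11.2% and 13.3%). With Y238A, 20 rose and 17 fell in AT-3 (33.9% and 28.8%, against 21.4% and 22.2%), and 3 rose and 8 fell in E0771 (5.08% and 13.6%, against 5.41% and 6.64%). Their median log2 fold change was 0.26 in AT-3 and 0.03 in E0771 with wild type, and with Y238A it was 0.01 in either line. Elk1, an SRF partner phosphorylated by ERK, had 159, 158 and 151 CPM with wild type, 83.9, 83.4 and 85.1 CPM with Y238A and 41.4, 40.2 and 42.96 CPM with empty vector in AT-3. In E0771 Elk1 had 26.2, 25.8 and 25.2 CPM with wild type, 19.6, 15.9 and 18.6 CPM with Y238A and 13.3, 14.8 and 13.9 CPM with empty vector. Its groups did not overlap in either line, and it rose with wild type by 1.91 ± 0.06 in AT-3 and 0.88 ± 0.06 in E0771. The smallest p-values with wild type in AT-3 also belonged to Klf5 (2.99 ± 0.07), the ERK-responsive Etv5 (1.91 ± 0.08), Klf9 (1.34 ± 0.06) and Srf, and in E0771 to Srf, Phlda1 (1.69 ± 0.10), Etv5 (0.88 ± 0.08), Etv4 (0.56 ± 0.06) and the phosphatase Dusp10 (0.59 ± 0.06). Mrtfb, the paralogue of MRTFA, fell with wild type, with log2 fold changes of -0.97 ± 0.05 in AT-3 and -0.24 ± 0.05 in E0771, and the mouse Mrtfa entry changed by -0.51 ± 0.04 in AT-3 with wild type.

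As a stress readout, 6 heat shock genes were summed beside the members. Their sum was 3344 to 3646 CPM with wild type, 3215 to 3519 CPM with Y238A and 3719 to 4009 CPM with empty vector in AT-3. In E0771 it was 5011 to 5599 CPM with wild type, 4817 to 5446 CPM with Y238A and 5458 to 6035 CPM with empty vector. In AT-3 both constructs lay below empty vector, and in E0771 wild type overlapped empty vector while Y238A lay just below it. Taken gene by gene, 5 of the 6 rose with wild type in AT-3 and Hspa8 fell (-0.49 ± 0.07), with a median log2 fold change of 0.62, and with Y238A 3 rose and 2 fell there, with a median of 0.20. In E0771 none of the 6 rose with either construct, while 2 fell with wild type and 1 with Y238A. In AT-3 with wild type Hspa1a rose by 1.77 ± 0.15 and Dnajb1 by 0.92 ± 0.12, and their E0771 changes were 0.00 ± 0.21 for Hspa1a (adjusted p = 1) and -0.07 ± 0.12 for Dnajb1 (adjusted p = 0.758). Their part in the members' changes was not tested.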

How the data were processed

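RNA was extracted with Qiagen RNeasy and the library kit was NuGen Universal Plus mRNA, per the labels' protocols. Per the submitters' processing notes, reads were aligned with STAR to GRCm38 and counted with featureCounts, and the deposited values are raw counts per gene. Versions, annotation release, strand setting and counting of mates are not given in the sources used here. Totals were 81265466 to 115260128 counts per library.

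Genes were kept by edgeR's filterByExpr (minimum count 10, minimum total 15), scaled by TMM and tested with edgeR 4.0.16 in R 4.3.3 by the robust quasi-likelihood F test over 6 groups with 12 residual degrees of freedom. Adjustment was by Benjamini-Hochberg over 17841 genes, with a threshold of 0.05. CPM per kb divides by exon length in the reference annotation.

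The members and lists were chosen with earlier results of these data known. Values in every library are given for members that passed for wild type in both lines, in the difference between lines, or with opposite signs for the 2 constructs, and other members are given by range. Other genes named are Srf, Mrtfa, Mrtfb, the construct and, from the pathway list, up to 6 per line with the smallest p; a gene that this rule names is not reported here. Motifs were searched in RefSeq promoter windows.

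Same-numbered libraries deviated together in wild type against empty vector of E0771 (correlations of deviations from the group means 0.576, 0.824 and 0.709 over 9340 genes). Some different-numbered E0771 libraries also did, at 0.697 for Y238A replicate 1 with empty-vector replicate 2 and 0.686 for wild-type replicate 2 with Y238A replicate 1. Others ran down to -0.728. The libraries of these 2 pairs are among those named carry-over libraries. E0771 Y238A replicate 3 also deviated with its number, at 0.651 with empty vector and 0.678 with wild type. For replicate 1 of E0771 Y238A these values were -0.544 and -0.395. In AT-3, same-numbered Y238A and empty-vector libraries gave 0.291, 0.0935 and 0.253. The correlations are thus mixed and do not establish pairing by number. Alternatives were DESeq2 1.42.0 and its size factors, library totals, no filter, a stricter filter (mean count of 50, and at least 3 libraries at 1 CPM), separate fits of the lines and a replicate block. Further ones left out the 4 carry-over libraries or each library in turn, or set a minimum absolute log2 fold change of 1.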

Additional observations from a re-analysis of the deposited data

Results flagged for a closer look

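The effect of a construct differed between the lines for the members listed here, by the interaction term of the quasi-likelihood fit, with an adjusted p under 0.05 over all 17841 genes. Values in brackets are the log2 fold change in AT-3 minus that in E0771, each of construct against empty vector. For wild-type MRTFA, 17 members had the higher effect in AT-3: Arc (7.02), Dusp2 (6.62), Nr4a1 (2.87), Atf3 (2.83), Nr4a3 (2.66), Fosb (2.46), Maff (1.85), Egr3 (1.13), Ier2 (1.13), Dusp5 (1.07), Klf6 (1.03), Zfp36 (0.97), Nr4a2 (0.94), Gadd45b (0.74), Csrnp1 (0.53), Junb (0.47) and Ier5 (0.30). The 9 members with the lower effect in AT-3 were Ier5l (-1.46), Jund (-1.38), Egr1 (-1.34), Myc (-0.89), Zfp36l1 (-0.72), Klf10 (-0.65), Klf4 (-0.37), Fosl2 (-0.34) and Ier3 (-0.26). For these 26 members 3 libraries per group entered each effect.

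Several of these calls were lost under another setting or with a library left out. The wild-type difference of Egr1 (adjusted p = 0.0314) was lost with DESeq2 (adjusted p = 0.0725) and with no low-count filter (adjusted p = 0.052), and on leaving out AT-3 empty-vector replicate 1 or 3, E0771 wild-type replicate 2 or 3 or E0771 empty-vector replicate 1 or 3 (adjusted p 0.0535 to 0.104). That of Egr3 (adjusted p = 0.0465) was lost with library-total scaling (adjusted p = 0.0748) and with no low-count filter (adjusted p = 0.0892), and on leaving out AT-3 wild-type replicate 1, 2 or 3, AT-3 empty-vector replicate 2 or 3, E0771 wild-type replicate 1 or 2, E0771 Y238A replicate 1, 2 or 3 or E0771 empty-vector replicate 1, 2 or 3 (adjusted p 0.0615 to 0.118), that of Klf4 (adjusted p = 0.0207) without the 4 carry-over libraries (adjusted p = 0.0815), and on leaving out AT-3 empty-vector replicate 1 (adjusted p = 0.0858), E0771 wild-type replicate 1 (0.058) or E0771 empty-vector replicate 2 (0.0699), that of Ier3 (adjusted p = 0.0204) on leaving out AT-3 wild-type replicate 1 (adjusted p = 0.0618), AT-3 empty-vector replicate 1 (0.0589) or 2 (0.0511) or E0771 wild-type replicate 2 (0.0545), and that of Ier5 (adjusted p = 0.00532) with library-total scaling (adjusted p = 0.118), and on leaving out AT-3 wild-type replicate 2 (adjusted p = 0.404) or 3 (0.226).

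For Y238A, 11 members had the higher effect in AT-3: Nr4a3 (2.87), Arc (2.27), Klf10 (1.42), Atf3 (1.21), Nr4a2 (1.18), Ier3 (0.96), Nr4a1 (0.79), Ier5l (0.61), Zfp36 (0.56), Trib1 (0.31) and Junb (0.28). The 6 with the lower effect in AT-3 were Egr3 (-1.58), Dusp6 (-0.84), Jun (-0.62), Ier2 (-0.36), Jund (-0.25) and Ier5 (-0.23). The difference of Egr3 (adjusted p = 0.023) was lost with no low-count filter (adjusted p = 0.0508), and on leaving out AT-3 Y238A replicate 2, AT-3 empty-vector replicate 1, E0771 Y238A replicate 1 or 3 or E0771 empty-vector replicate 1 or 2 (adjusted p 0.0503 to 0.0615), and without AT-3 Y238A replicate 1 it was -2.24. That of Jund (adjusted p = 0.0219) was lost without the 4 carry-over libraries (adjusted p = 0.168), and on leaving out AT-3 Y238A replicate 1 or 3, AT-3 empty-vector replicate 3 or E0771 empty-vector replicate 2 or 3 (adjusted p 0.0544 to 0.0964), that of Ier5 (adjusted p = 0.0486) with no low-count filter (adjusted p = 0.0672), and on leaving out AT-3 wild-type replicate 1, AT-3 Y238A replicate 2 or 3, AT-3 empty-vector replicate 1 or 2, E0771 wild-type replicate 2 or 3, E0771 Y238A replicate 1, 2 or 3 or E0771 empty-vector replicate 1, 2 or 3 (adjusted p 0.0576 to 0.153), and that of Atf3 (adjusted p = 0.0117) without the 4 carry-over libraries (adjusted p = 0.0598). Construct level moved with line in both sets, at 5434 ± 1444 CPM in AT-3 and 761 ± 91.1 CPM in E0771 for wild type, and at 2104 ± 195 CPM in AT-3 and 319.6 ± 37.4 CPM in E0771 for Y238A (mean ± SD, n = 3), and its part in these differences was not tested.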

How the results depend on the processing

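Member counts (higher and lower) in the 9 comparisons stayed within 1.5 times of those reported with DESeq2 size factors, library totals, DESeq2, no low-count filter, a stricter filter and the replicate block. A fit of each line alone gave 11 members higher for Y238A in E0771 in place of 7. Without the 4 carry-over libraries that comparison gave 2 higher and 3 lower in place of 7 and 5. Requiring an absolute log2 fold change of at least 1 left, in AT-3, 2 lower with wild type, 9 higher and 2 lower with Y238A, and 4 lower for wild type against Y238A. In E0771 it left 8 higher and 0 lower with wild type, 2 higher and 0 lower with Y238A, and 9 higher and 0 lower for wild type against Y238A. It left 13 higher and 7 lower for AT-3 against E0771 with empty vector, and for the AT-3 minus E0771 differences 11 higher and 3 lower with wild type and 5 higher and 1 lower with Y238A. Each such limit drops called genes by construction, also where the count is 0.

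Of 333 pairs of member and comparison, 218 passed. With library totals 9 of them lost and 9 others gained a call, not counting 2 values that reversed sign. Of these 2, the called value of Fosl2 for wild type against Y238A in AT-3 turned to -0.028. The value of Trib1 for wild type against empty vector in AT-3, not called before, turned to -0.13 and passed. DESeq2 lost 4 and gained 12, and leaving out the 4 carry-over libraries lost 16 and gained 5. Leaving out E0771 Y238A replicate 2 lost 7 and gained 15, the most gained under any single setting. Egr2 for wild type against Y238A in E0771 was 5.72 without Y238A replicate 1 and 2.34 without wild-type replicate 2 (edgeR adjusted p = 0.175), and Egr1 there was 3.58 without Y238A replicate 1. The cause of these changes was not tested.

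Leaving out each library in turn gave member counts of 21 to 24 higher and 7 to 9 lower with wild type in AT-3, 14 to 17 and 9 to 12 with Y238A in AT-3, and 21 to 23 and 8 to 9 for wild type against Y238A. In E0771 they were 16 to 19 and 2 to 4 with wild type, 4 to 9 and 4 to 6 with Y238A, and 17 to 18 and 4 to 5 for wild type against Y238A. Between lines they were 19 to 21 and 13 with empty vector, 15 to 17 and 6 to 12 for the wild-type difference, and 11 to 14 and 3 to 7 for the Y238A difference.

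Over all genes, 2364 were lower with wild type in E0771, against 1385 with a stricter filter, 1416 with the line alone, 1100 without the 4 carry-over libraries and 1308 to 2910 on leaving out each library in turn, and the 1184 lower with Y238A in E0771 became 548 to 1604. Without those libraries Y238A in E0771 gave 510 higher and 333 lower in place of 965 and 1184, and wild type against Y238A 1465 lower in place of 2326. For wild type against empty vector in E0771, fitting replicate number as a block changed the calls of Klf2 and Klf6. Whether samples of one number were paired is not given. The replicate block gave 24 and 7 with wild type in AT-3, 15 and 10 with Y238A, 23 and 8 between the constructs, 18 and 3, 8 and 6, and 18 and 4 for the same comparisons in E0771, 21 and 13 with empty vector between lines, and 17 and 9, and 14 and 7, for the differences between lines. Members at a few counts, such as Egr2 and Egr4 in E0771, are limited by depth.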
